A study of Homo sapiens with 6 samples.

Results

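In HCT-116 human colon cancer cells, 965 of 37882 CTCF-bound regions of clone E4 on chromosomes 1 to 22 held no peak of clone D3. They were found by merging the deposited peak lists of D3, E4 and wild-type cells (WT) wherever peaks overlapped by at least 1 bp, and keeping every merged region with an E4 peak and no D3 peak. Of these 965 regions, 127 also held a WT peak and 838 held a peak of E4 alone. The merge gave 58351 autosomal regions in all, and 36917 of the E4 regions did hold a D3 peak. The members were thus chosen by measured values, the presence of an E4 peak and the absence of a D3 peak, and neither is a result.

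CTCF was mapped by chromatin immunoprecipitation and sequencing from formaldehyde-fixed, sonicated chromatin of untreated HCT-116, an established colon carcinoma line. The labels give the genotype of D3 and E4 as a CTCF mutation and that of WT as wild type, and the title of the series names the WNT-dependent gating of MYC through a CTCF site far from it. The labels do not say where the mutation is, and D3 and E4 are each a single clone. There was 1 CTCF library per population and hence no replicate, and differences between clones, cultures and libraries cannot be told apart.

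CTCF is a zinc-finger protein that binds a GC-rich motif, marks insulators and, together with cohesin, anchors chromatin loops. Many of its sites are shared between cell types, while weaker sites vary more between them. It is also found at the 5′ ends of genes, where loops can bring promoters near distal elements.

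Among the 25 members with the strongest E4 peaks described below, 5 lay within 1 kb of the 5′ end of a gene, by gene positions on hg19 that come from general knowledge. The share of all E4 regions this near to a 5′ end was not measured, so the count is a description only. These genes were MLEC, which encodes a carbohydrate-binding protein of the endoplasmic reticulum, LMBR1L, a membrane protein, BORCS5, a subunit of the complex that positions lysosomes, OSBPL8, a lipid transfer protein, and ATP6V0E2, a subunit of the vacuolar proton pump. The 250 bases before the start of each gene are shown because these are the only strong members with a promoter to set beside the peak. They come from RefSeq on GRCh38.p14, each 5′ to 3′ on the strand of its gene, and the files use hg19, so the peaks were not placed on these letters. Capitals mark AGGGGGC or AGGTGGC, letters from the core of the CTCF motif, searched on both strands.
MLEC: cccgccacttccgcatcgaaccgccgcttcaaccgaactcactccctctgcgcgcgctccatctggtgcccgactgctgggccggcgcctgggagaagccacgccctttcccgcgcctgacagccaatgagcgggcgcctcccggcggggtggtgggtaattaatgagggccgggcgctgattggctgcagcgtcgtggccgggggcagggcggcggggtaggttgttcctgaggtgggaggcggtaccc
LMBR1L: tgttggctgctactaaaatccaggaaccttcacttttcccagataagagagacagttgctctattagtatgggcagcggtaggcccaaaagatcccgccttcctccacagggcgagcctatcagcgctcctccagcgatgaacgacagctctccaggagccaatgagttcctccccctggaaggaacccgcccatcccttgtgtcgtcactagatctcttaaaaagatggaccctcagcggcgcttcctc
BORCS5: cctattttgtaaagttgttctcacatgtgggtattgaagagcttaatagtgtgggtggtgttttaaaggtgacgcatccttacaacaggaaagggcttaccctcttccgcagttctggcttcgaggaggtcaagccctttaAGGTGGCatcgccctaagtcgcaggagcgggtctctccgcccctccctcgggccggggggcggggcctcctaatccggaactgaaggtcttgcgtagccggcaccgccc
OSBPL8: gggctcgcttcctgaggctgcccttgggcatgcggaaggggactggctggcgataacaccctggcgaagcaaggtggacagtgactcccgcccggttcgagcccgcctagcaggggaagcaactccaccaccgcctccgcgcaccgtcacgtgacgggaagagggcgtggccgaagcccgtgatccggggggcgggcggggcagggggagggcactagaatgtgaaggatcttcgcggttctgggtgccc
ATP6V0E2: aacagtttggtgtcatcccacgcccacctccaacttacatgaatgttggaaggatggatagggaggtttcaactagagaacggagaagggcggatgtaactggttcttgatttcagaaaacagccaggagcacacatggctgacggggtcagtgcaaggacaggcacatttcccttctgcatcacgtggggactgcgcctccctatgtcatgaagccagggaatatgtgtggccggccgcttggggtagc
Of the 5, only the BORCS5 sequence held either of these words, and 6267 of 34788 RefSeq promoters of this length (18%) held at least 1. Other spellings of the motif core, such as the agagggc in the OSBPL8 sequence, were not searched. A sequence without capitals can therefore still hold the motif, and the 18% has the same limit. The GC content was 70.4% for MLEC, 54.4% for LMBR1L, 56.8% for BORCS5, 68.8% for OSBPL8 and 53.6% for ATP6V0E2, against a median of 58% over all these promoters. A match describes letters only, and the sequences of the other members were not used here.

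Regions of E4 without a D3 peak made up 2.55% of E4 regions (exact Clopper-Pearson 95% interval 2.39 to 2.71%). In the other direction 34% of D3 regions held no E4 peak, and the D3 list was the longer, with 56103 autosomal peaks against 38209 in E4 and 37735 in WT. The tables give no read numbers, so depth is unknown, and all intervals cover counting error over regions only. When each list was cut to the length of the shortest by −log10 q, 4632 E4 regions (12.5%) lacked a D3 peak, and with the D3 list alone cut to that length the number was 5194.

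Members sat mainly at the weak end of the E4 list. The strength of a peak is given here as the authors' −log10 q from the peak caller, where a higher value means a lower false discovery rate, and as its percentile in its own list. The median −log10 q was 1.90 over the members (95% interval 1.84 to 1.97) and 8.17 over the other E4 regions. The members' median percentile in the E4 list was 6.77, and their median fold enrichment over the caller's background was 3.66, against 6.52 in the other E4 regions. The list itself begins just above a −log10 q of 1.

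When the E4 regions were ordered by −log10 q and divided into deciles, the share lacking D3 fell from 16% in decile 1, the weakest (605 of 3789), to 5.41% in decile 2 (205 of 3788) and 2.56% in decile 3 (97 of 3788). Deciles 4 and 5 held 37 and 12 members. Deciles 6 to 10 together held 9 members, and decile 10 held 0 of 3789, which allows a share of up to 0.0973%. In all, 810 members (83.9%) came from the 2 weakest deciles. Only 45 members reached a −log10 q of 5, 0.178% of the 25213 E4 regions of that strength.

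**Figure D1:**
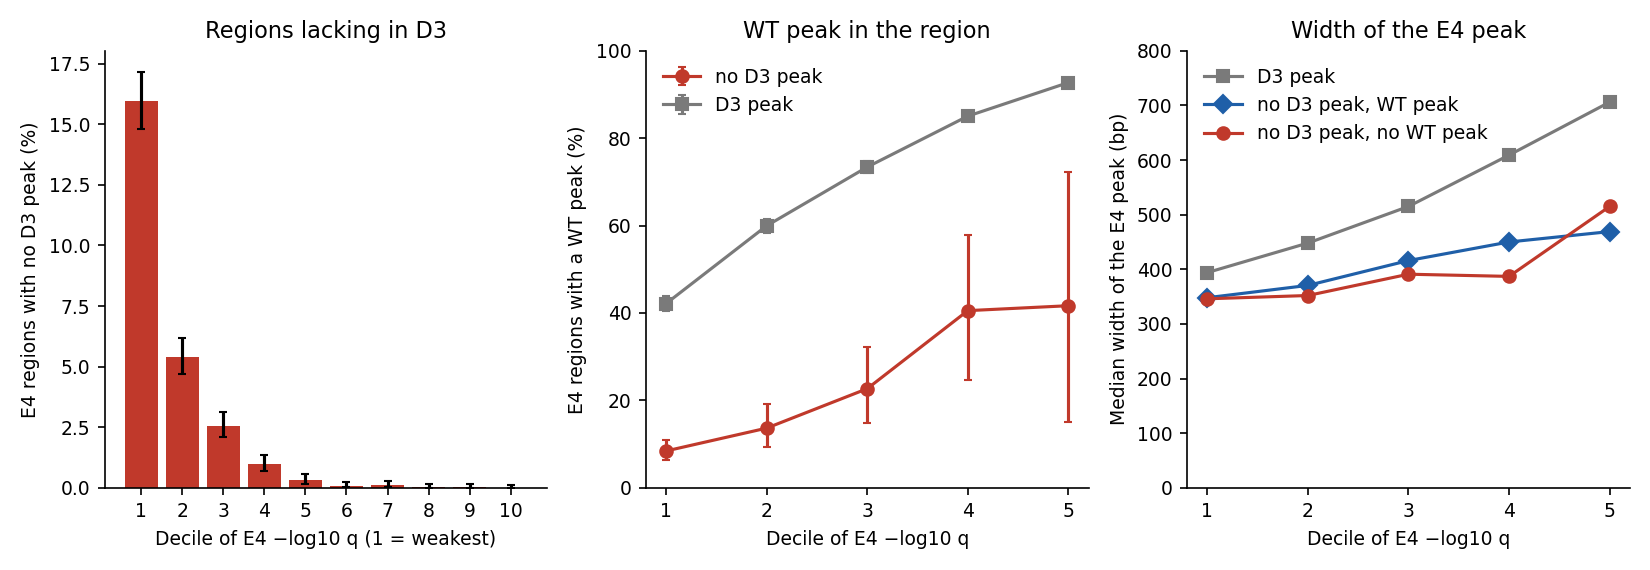
E4 regions by decile of their −log10 q, from 1 (weakest). Left, the percentage with no D3 peak; middle, the percentage with a WT peak among regions without (red) and with (grey) a D3 peak; right, the median E4 peak width in bp of regions with a D3 peak (grey), and without it with (blue) or without (red) a WT peak. Bars and points are shares or medians, and error bars, on the shares, are exact 95% intervals over regions. The share lacking D3 falls from 16 to 0%. The middle and right panels plot deciles 1 to 5. In each of these, regions without a D3 peak hold a WT peak less frequently and have narrower E4 peaks. The rule itself favours narrow E4 peaks, which are less likely to overlap a D3 peak.

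WT peaks entered the merge but not the choice, and the same number of E4 peaks, 965, had no D3 overlap without merging. A WT peak lay in 13.2% of the members (127 of 965, 95% interval 11.1 to 15.5%) and in 85.8% of the other E4 regions (31692 of 36917, 85.5 to 86.2%). Over all E4 regions, 16% held no WT peak. The other E4 regions are stronger, and when their deciles were weighted as those of the members the share with a WT peak came to 51.9%, still above the members' interval. The other regions were also merged with D3 peaks and so were wider. When only a WT peak overlapping the E4 peak itself was counted, the shares were 13.2% without and 85.8% with a D3 overlap, and in decile 1 of the E4 peaks they were 8.43% (6.34 to 10.9%) and 41.6% (39.9 to 43.3%).

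The same order held within each of the 5 weakest deciles. In decile 1, 8.43% of members (6.34 to 10.9%) and 42.1% of other regions (40.4 to 43.9%) had a WT peak. In decile 2 the shares were 13.7 and 59.9%, and in decile 3 they were 22.7 and 73.4%. In decile 4 they were 40.5% (24.8 to 57.9%, 37 members) and 85.0%, and in decile 5 they were 41.7% (15.2 to 72.3%, 12 members) and 92.7%. In these 5 deciles the interval of the members lay wholly below that of the other regions. The stronger the E4 peak of a member, the more frequently WT held a peak there, with 21 of the 45 members at a −log10 q of 5 or more (46.7%, 31.7 to 62.1%) against 106 of the 920 below it (11.5%, 9.53 to 13.8%). Seen from the WT list, 4.14% of WT regions lacked a D3 peak.

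The 127 members with a WT peak ranked higher in E4 than the 838 without. Their median E4 −log10 q was 2.72 (2.27 to 3.17) against 1.84 (1.78 to 1.90), and their median percentile was 15.1 against 6.26. In the WT list their own peaks were also weak, with a median percentile of 16.6 (14.4 to 20.3) against 57.6 for WT peaks at the other E4 regions. Over the 127, in any decile, the E4 and WT −log10 q had a Spearman correlation of 0.408. Over 12890 regions held by all 3 lists in the 5 weakest deciles of E4 it was 0.342, a set limited in strength unlike the 127. These points share their libraries, so the values are descriptive. The WT percentile was above the E4 percentile in 65 of the 127.

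Members were narrow. Their median E4 peak was 363 bp wide against 769 bp in the other E4 regions, and 172 members spanned 300 bp or less. The narrowest peak of the whole E4 list was 273 bp, and 129 members had peaks no more than 20 bp wider than that. Weak peaks of the list were narrower, so the widths were also set side by side within deciles. The medians were 346 bp for members and 394 bp for others in decile 1, 359 and 448 bp in decile 2, 394 and 515 bp in decile 3, 444 and 609 bp in decile 4 and 510.5 and 706 bp in decile 5. Members had the narrower median in each. A narrow peak is less likely to overlap a D3 peak, so the rule itself favours narrow E4 peaks, also within a decile. Fold enrichment within those deciles was close, at 3.42 and 3.50 in decile 1 and 5.41 and 5.34 in decile 4.

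Merged regions with a WT peak were wider, with a median of 537 bp (491 to 573) against 357.5 bp (348 to 369) for E4-only members, but a merged region holding peaks of a second list is wider by construction. The E4 peak alone was 405 bp wide (364 to 436) in members with a WT peak and 357.5 bp in E4-only members. Within decile 1 the medians were 348 and 346 bp, and within decile 4 they were 450 bp (15 members) and 387 bp (22 members). In decile 5 they were 469 bp (5 members) and 515 bp (7 members), too few for the order to be read. The WT peak was the wider in 52 of the 127. Each member held a single E4 peak, and the 37 widest members spanned more than 1 kb, 22 of them E4-only and 15 with a WT peak.

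The 3 widest members show how width and strength could part. At chr10:74019587-74021525 (hg19, as all coordinates here), between ANAPC16, a subunit of the anaphase-promoting complex, and the stress-response gene DDIT4, a single E4 peak of 1939 bp had a −log10 q of 1.41. At chr11:93969714-93971555, between the channel gene PANX1 and IZUMO1R, the width of 1842 bp came from the WT peak. The third was the member at RHPN1, described next, where the WT peak of 1679 bp also set the width.

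The 10 strongest members with a WT peak were named together with the 15 strongest E4-only members, and the 25 had E4 −log10 q values from 5.68 up. The strongest, chr18:78015241-78016184, lay 9.81 kb beyond PARD6G, a cell polarity gene, with an E4 −log10 q of 18.5 and a fold of 10.9. It stood at percentile 81.6 of E4 and 83.3 of WT, and the nearest D3 peak was 9.04 kb away. The next, chr20:62406276-62407125 in ZBTB46, a zinc-finger transcription factor gene, had an E4 −log10 q of 17.3 and stood at percentile 79.4 of E4 and 79.7 of WT, with a D3 peak 3.03 kb away. These were the members of highest E4 percentile, and both ranked as high in WT.

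At the others the E4 peak ranked above the WT peak. The member at the 5′ end of MLEC, chr12:121124504-121125207, stood at percentile 67.1 of E4 (−log10 q 12.2) and 22.1 of WT. The member at RHPN1, chr8:144460860-144462538, stood at 64.3 and 50.7. Between TNS3, which encodes a focal adhesion protein, and PKD1L1 the member chr7:47761196-47761754 stood at 58.1 and 32.3. In 8 of the 10 the E4 percentile was above that of WT. The 10 were picked by their E4 value, which favours this order. Over all 127 members with a WT peak the WT percentile was the higher in 65.

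The remaining 5 of the 10 had E4 −log10 q values from 6.62 to 8.33. They lay 43.8 kb from SMURF2, a ubiquitin ligase gene (chr17:62702144-62702719), between SMOX, which encodes spermine oxidase, and ADRA1D (chr20:4175808-4176718), between RUNX1 and SETD4 (chr21:36880644-36881171), at the 5′ end of LMBR1L (chr12:49504267-49504860) and between RPL27A and DENND2B (chr11:8710138-8710699). Among these 5 the gap between the lists was widest at LMBR1L, with percentile 44.8 in E4 and 4.70 in WT. The RUNX1 to SETD4 site was the farthest of the 10 from D3, with the nearest D3 peak 107 kb away.

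Among E4-only members the strongest, chr14:56806579-56807295, lay between PELI2, which encodes a ubiquitin ligase, and TMEM260. Its fold was 9.19, it stood at percentile 70.4 of E4, and the nearest D3 peak was 45.4 kb away. The second, chr11:93769233-93769861 in HEPHL1, a ferroxidase gene, had a −log10 q of 11, with the nearest D3 peak 70.3 kb away. The third, chr7:26588674-26589309 between SNX10, a sorting nexin gene, and SKAP2, had a −log10 q of 8.35 at percentile 53.0. Both of the last had another member as neighbour, described with the runs.

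The other 12 ranged in −log10 q from 5.68 to 6.91. Of these, 4 overlay the gene windows of STAB1, a scavenger receptor gene (chr3:52543775-52544323), ADAM32 (chr8:39067022-39067646), the kinase gene MAST2 (chr1:46486977-46487514) and the phospholipase gene PLCH2 (chr1:2375338-2375674). A further member lay in MAML3, which encodes a coactivator of Notch signalling (chr4:141073031-141073739). Between genes lay those flanked by JAG1, a Notch ligand, and BTBD3 (chr20:11210430-11210905), by CELF4 and PIK3C3 (chr18:37586659-37587173), and by the transcriptional repressor ZEB2 and the activin receptor ACVR2A (chr2:147579185-147579677). These genes were far away, at 556 and 660 kb, 2441 and 1948 kb, and 2301 and 1023 kb in that order. BORCS5 (chr12:12509871-12510376), OSBPL8 (chr12:76953117-76953560) and ATP6V0E2 (chr7:149569757-149570206) had the peak at the 5′ end, and no gene is named for chr10:48277384-48277716. In all, 13 of the 25 overlay a gene window. The share of all E4 regions that do so was not measured, so this count too is a description only. Exons and introns were not assigned.

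**Figure D2:**
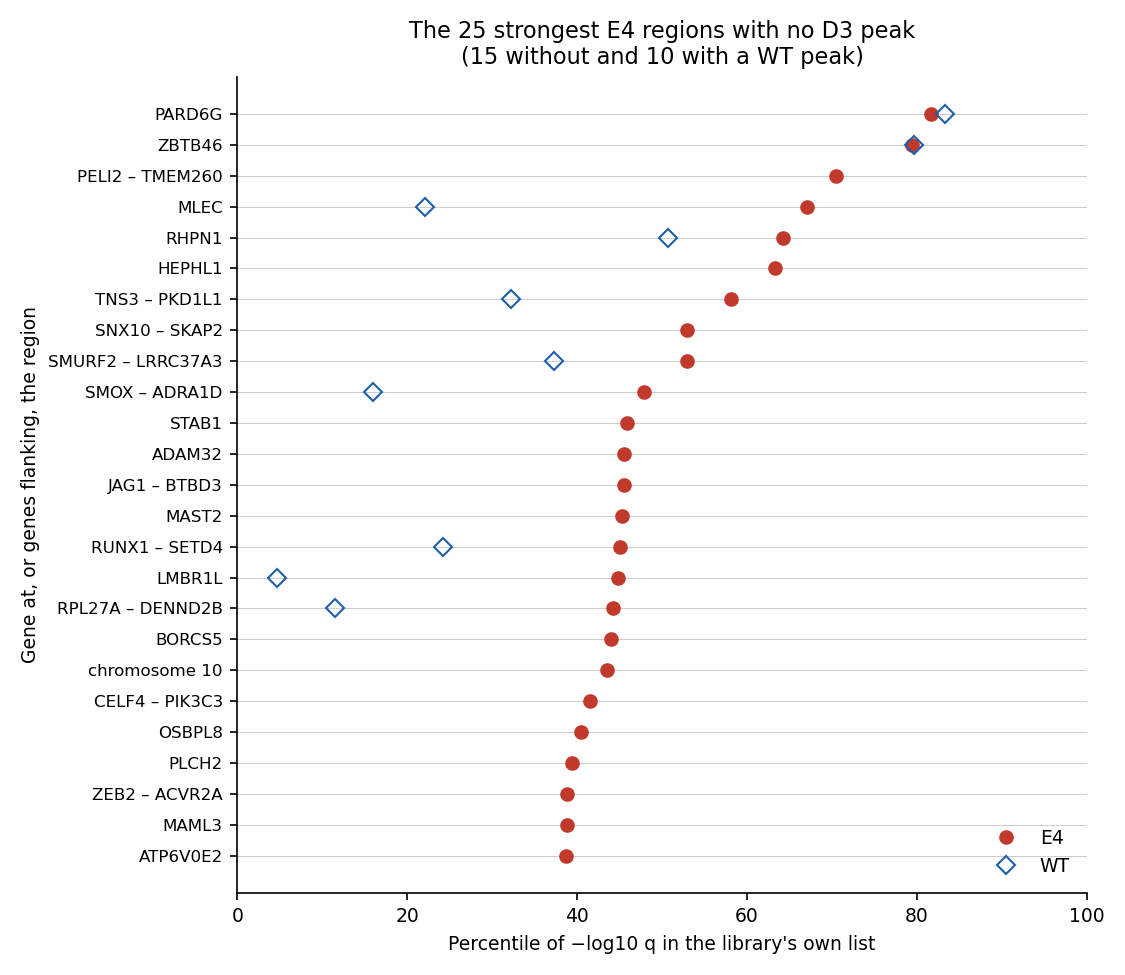
The 25 strongest E4 regions without a D3 peak, ordered by the percentile of their −log10 q in the E4 list (red circles, x axis in percentile), with the WT percentile (blue diamonds) where WT held a peak. PARD6G and ZBTB46 lie at 79.4 or above in both lists, and in the other 8 with a WT peak the circle is to the right of the diamond. The regions were picked by their E4 value, which favours this order.

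Because membership turns on a single base of overlap, the sites on either side of the limit are given as a description. The nearest members to a D3 peak were chr2:100341862-100342342 in AFF3, 4 bp away, chr1:188097917-188098329 between PLA2G4A and BRINP3, 8 bp away, and chr8:38965733-38966188 in ADAM32, 11 bp away, with E4 −log10 q values of 1.04, 1.73 and 1.04. The regions left out by the smallest overlap were chr13:109865169-109865513 past MYO16 (1 bp, −log10 q 1.36), chr7:26530932-26531272 between SNX10 and SKAP2 (8 bp, 3.24) and chr22:38378878-38379161 at SOX10 (10 bp, 1.49). Within 100 bp of the limit lay 11 members, and 39 E4 peaks overlapped D3 by less than 100 bp. Most members were therefore clear of it.

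The nearest D3 peak lay at a median of 14.3 kb (12.7 to 15.8 kb) from a member. It was within 1 kb for 33 members (3.42%), within 10 kb for 402 (41.7%) and within 100 kb for 898 (93.1%). Members with a WT peak and E4-only members had similar distances, with medians of 15.1 kb (9.13 to 19.8) and 14.2 kb (12.7 to 15.8). The farthest members were chr13:57604863-57605168, 593 kb from any D3 peak and 601 kb before the protocadherin gene PCDH17, chr9:82372994-82373346, 416 kb away and 31.3 kb past the corepressor gene TLE4, and chr4:43778463-43778779 between GRXCR1 and KCTD8, 304 kb away. All 3 were E4-only.

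**Figure D3:**
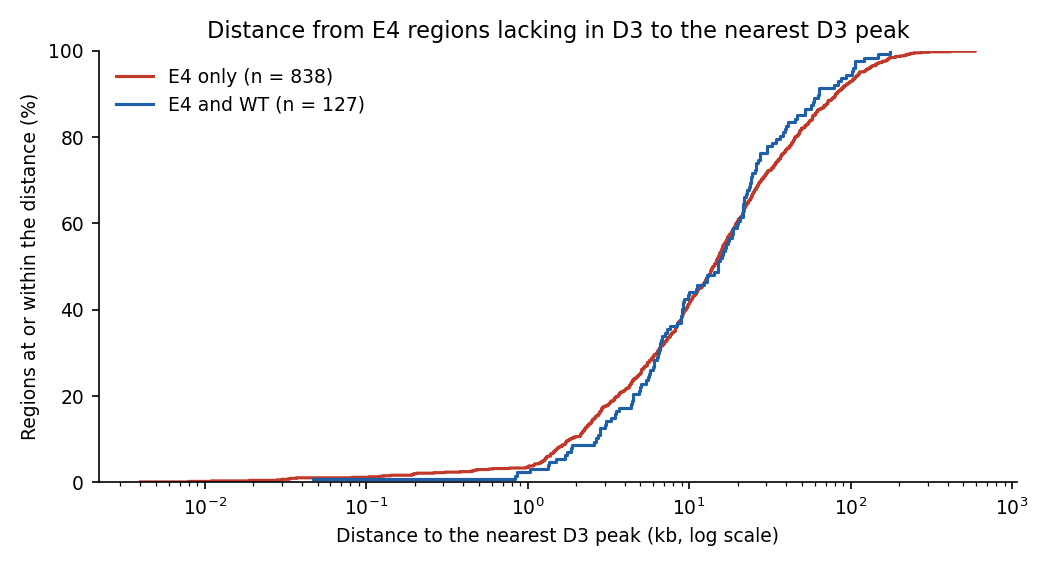
Cumulative percentage of members (y axis) with a D3 peak at or within a given distance (x axis, kb, log scale), for the 838 E4-only members (red) and the 127 with a WT peak (blue). The curves run close together and pass 10 kb at 41.4 and 43.3%.

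Members also lay somewhat apart from other E4 regions. The median distance to the next E4 region of any kind was 21.3 kb (18.8 to 23.2) for members and 15.6 kb (15.4 to 15.9) for the rest. Within the 2 weakest deciles the medians were 21.7 kb (19.3 to 24.1) and 19.4 kb (18.6 to 20.3), so the intervals overlapped there. Members were still the weaker in those deciles, with a median E4 −log10 q of 1.74 against 2.30, so strength was not fully matched.

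Most members stood alone, and only 2.55% of all E4 regions were members. The share in runs under a random order was not computed, so the part that scarcity plays in this was not tested. When the E4 regions were read in order along each chromosome, 855 members had no member as neighbour, 98 formed 49 runs of 2, and 12 formed 4 runs of 3. Runs held 11.4% of the members (9.46 to 13.6%), 98 of the 838 E4-only members (11.7%) and 12 of the 127 with a WT peak (9.45%). In 36 of the 49 runs of 2 and 3 of the 4 runs of 3, no region with a D3 peak lay between the members. A region with both an E4 and a D3 peak ends a run, so only D3 regions without an E4 peak could lie there. The definition of a run thus favours this outcome. All members were E4-only in 43 of the runs of 2 and 1 of the runs of 3, and all had a WT peak in 1 run of each length.

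Of the 4 runs of 3, 2 lay between RUNX1, a transcription factor gene of blood formation, and SETD4 on chromosome 21, and 1 lay in CHRM3, a muscarinic receptor gene. The CHRM3 run, chr1:239775906-239965936, consisted of weak E4-only peaks with −log10 q values of 1.78, 1.15 and 1.36, and a D3 region lay among them. The strongest run of 2 was in HEPHL1, where 2 E4-only peaks with −log10 q values of 4.79 and 11 lay within 2.48 kb (chr11:93767385-93769861). No D3 peak lay within 70.3 kb of that pair.

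The RUNX1 to SETD4 interval held a stretch in which most E4 regions were members, chosen after the values had been seen. Over 510 kb, 6 of its 7 E4 regions had no D3 peak. From the RUNX1 side the 6 members had E4 −log10 q values of 2.89, 1.90, 5.29, 6.77, 3.76 and 1.98. WT had peaks at the strongest pair of these, chr21:36712394-36713117 and chr21:36880644-36881171, at percentiles 27.8 and 24.3, where E4 stood at 36.1 and 45.1.

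The other E4 region of the stretch, chr21:36772432-36773386, was held by all 3 lists, at percentile 22.8 of the D3 list, 41.9 of E4 and 21 of WT. Beyond it no D3 peak lay over 439 kb. The regions flanking the stretch were strong in both clones. At chr21:36423260-36424215 D3 stood at percentile 89.4, E4 at 88.5 and WT at 81.1, while at chr21:37212143-37212961 the percentiles were 78.3, 71.0 and 8.69 in the same order.

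**Figure D4:**
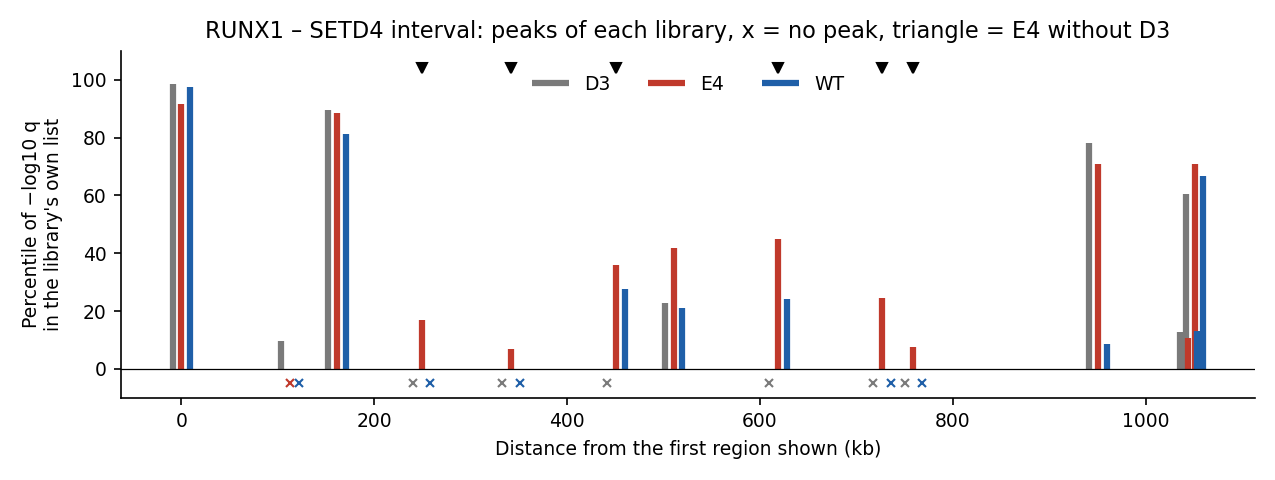
Regions of the RUNX1 to SETD4 interval. The x axis gives the distance in kb from the first region shown and the y axis the percentile of −log10 q in each library's own list; D3 (grey), E4 (red) and WT (blue) bars of a region are set side by side, a cross marks no peak, and triangles mark members. Members form 6 of the 7 E4 regions over 510 kb.

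All 22 autosomes held members, chromosome 1 the most with 110. Chromosome 21 had the highest share of its E4 regions lacking D3, 5.01% (18 of 359, 3 to 7.81%), and chromosome 15 the lowest, 1.05% (0.558 to 1.78%). The intervals of the other 20 included the autosomal 2.55%. On chromosome 21, 6 of the 18 members were those between RUNX1 and SETD4.

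**Figure D5:**
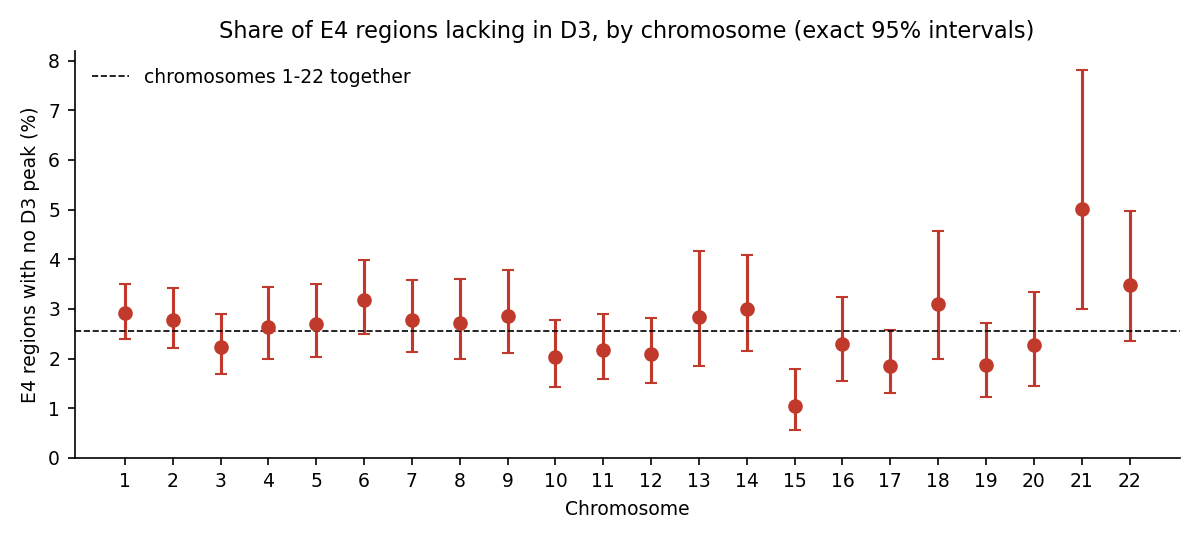
Percentage of E4 regions with no D3 peak (y axis) on each autosome (x axis), with exact 95% intervals over regions; the dashed line is the share over chromosomes 1 to 22. The intervals of chromosomes 15 and 21 lie off the line, and those of the other 20 include it.

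Members were spread along the chromosomes too. In 10 Mb bins with at least 50 E4 regions, 0 of 269 bins had an interval wholly above 2 times the autosomal share, 15 bins held no member and the fullest held 13. In 5 Mb bins, 2 of 520 passed the same limit. The bin at 235 to 240 Mb of chromosome 1, which holds the CHRM3 run, had 8 members among 63 E4 regions (12.7%). The bin at 10 to 15 Mb of chromosome 2 had 9 among 70 (12.9%). Each bin had 1 member with a WT peak, and their E4 −log10 q values ran from 1.15 to 5.02 and from 1.04 to 4.63.

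Gene lists of loci where CTCF or colon biology is well studied were set beside the members, with 10 kb on either side. Over all lists 11 of 417 E4 regions lacked D3 (2.64%, 1.32 to 4.67%), close to the 2.55% of all E4 regions. In the 8q24 windows around MYC, 2 of 9 E4 regions were members (22.2%, 2.81 to 60%), and both lay in PVT1, the non-coding RNA gene beside MYC. They were E4-only peaks at chr8:128864321-128864680 (−log10 q 1.93) and chr8:128906835-128907218 (3.13), with D3 peaks 33.3 and 75.8 kb away. With 50 kb on either side the 8q24 share was 2 of 14 (14.3%, 1.78 to 42.8%), an interval that includes 2.55%.

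The windows of the histone cluster and the extended MHC on chromosome 6 held 8 members among 210 E4 regions (3.81%, 1.66 to 7.37%), all E4-only, with −log10 q values from 1.02 to 3.77. Of these, 3 lay close together, from chr6:28809086-28809554 to chr6:28864631-28865048, each with a D3 peak within 4.22 kb. The HOXC cluster held 1 member with a WT peak, chr12:54415435-54416029 (−log10 q 1.43), the only member among 32 E4 regions of the HOX clusters. There were 0 members among 39 E4 regions of the insulator windows, 33 of the zinc-finger clusters of chromosome 19, 26 of the WNT targets, 19 of the imprinted genes, 16 of the CTCF and cohesin genes, 15 of the colon epithelial genes, 10 of the protocadherin clusters and 8 of the colorectal cancer genes. These counts allow shares of up to 9.03% for the insulator windows and 36.9% for the colorectal cancer genes, so the autosomal 2.55% lies within what each could hold. With 50 kb on either side, 1 member each fell by KCNQ1 (imprinted), NKD1 (WNT targets), SMC3 (CTCF and cohesin) and CDX1 (colon epithelial). Over all lists the 50 kb share was 15 of 546 (2.75%, 1.55 to 4.49%).

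The E4 regions around members that did have peaks in all 3 lists were ranked by −log10 q within each library, over the 31692 regions held by all 3, and the E4 percentile less the D3 percentile was taken. The median difference was 2.24 percentile points (1.61 to 2.77) in 2683 regions within 100 kb of a member and 0.399 (0.233 to 0.552) in 29009 regions farther away. The middle of the distribution was wide in both, with quartiles from −6.69 to 11.9 near members. Near members with a WT peak the median was 1.55 (0.104 to 3.18, 422 regions). Regions near members thus ranked slightly higher in E4 relative to D3, by a small amount beside the spread over regions. Over 258 bins of 10 Mb the share of members and the median rank difference had a Spearman correlation of 0.0986, a description over bins of the same libraries.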

How the data were processed

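CTCF was profiled in HCT-116 cells in 6 samples, of which 3 are CTCF libraries (WT, D3 and E4) and 3 libraries without antibody, not analysed here. Per the submitters' processing notes, CASAVA 1.8.2, Picard 2.23.1, bedtools 2.29.2, MACS2 2.2.7.1 and hg19 were used, with no role stated. The aligner, the peak-call settings and the use of controls are not given in the sources used here. There is 1 broad peak list per library as deposited, so peaks were called per sample. The fold enrichment, a ratio, and the −log10 p-value and q-value of each peak are the authors' values. They served to rank, filter and describe peaks inside a single list, and lists were set beside each other by these ranks only. The deposited score column was not used. Depth is unknown, and the peak number of a list can move with it.

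Lists were merged with Python 3.11.15, pandas 2.3.3, NumPy 2.4.6 and SciPy 1.17.1, on autosomes. A merged region took the values of its peak of highest −log10 q in each list, and percentiles were taken over all peaks of a list. Shares have exact Clopper-Pearson 95% intervals and medians exact binomial order-statistic intervals, which treat regions as independent. With 1 library per population no p-value was computed. The merging was tested on simulated data.

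The members, gene lists and rules were chosen with earlier results of these data known. Named sites were the 15 E4-only members and the 10 with WT of highest E4 −log10 q, the members of the 5 longest runs (ties by −log10 q; 1 run of 3 is not reported here), the 3 widest, 3 nearest and 3 farthest members, the 3 regions of smallest overlap with D3, and members in gene-list windows. The positions of genes on hg19 come from general knowledge, those of the named sites after their values were seen. Their 102 genes were on the same chromosome in a RefSeq table of GRCh38.p14, and in the same order on 20 of 20 chromosomes with several. Alternatives were a −log10 q of 5 in every list or in E4 alone, equal list lengths, a 1 kb distance, 50% coverage, single peaks, all-region order for runs, 5 Mb bins and 50 kb windows.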

Additional observations from a re-analysis of the deposited data

How the results depend on the processing

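No paired analysis was possible because each population has a single CTCF library and no test was made. With 1 library per population none could be left out. Of 46 alternatives, 22 left a share or median inside its interval, or a count within 1.5 times its size, and 24 did not. Among the former, 50% coverage gave 1286 members, and the order of all merged regions gave 83 members in runs.

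When peaks below a −log10 q of 5 were left out of all 3 lists, 458 members (1.82%) were found, with a median width of 563 bp, a median E4 percentile of 40.8, a D3 peak at a median of 17.6 kb, 45 members in runs and 1 bin above the limit. With that threshold in E4 alone there were 45 members (0.178%), 46.7% with a WT peak, with a width of 552 bp, a percentile of 39.4, a distance of 18.8 kb and 2 members in runs. In both settings the percentiles still referred to the full E4 list. There 34.1% of the E4 peaks lay below the threshold, so neither median percentile could fall below about that level. With lists of equal length there were 4632 members (12.5%), 38.1% with a WT peak, with a width of 467.5 bp, a percentile of 14.5, a distance of 19.1 kb and 1340 members in runs. In those lists the lowest D3 −log10 q was 5.12. With the D3 list alone cut to that length, a setting chosen after seeing the data, there were 5194 members. Single peaks without merging gave a width of 363 bp, and 5 Mb bins gave 2 bins above the limit.

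The alternatives for the rank difference near members were chosen after seeing the data, and gave 1.84 points within 250 kb (0.256 farther away) and 2.61 points without chromosomes 8, 10, 16 and 17 (0.649 farther away). Unknown depth limits what the absence of a D3 peak shows: no D3 peak was called there, and signal below the calling threshold was not measured.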
